A study of Lemna gibba with 6 samples.

Results

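In duckweed (*Lemna gibba*) fronds, 148 of 16340 genes had mean transcript levels from 4 fold to under 16 fold lower with glutamine (Gln) than with nitrate and ammonium as the nitrogen source. A gene was taken as a member of this set if its mean over all libraries was at least 100 normalized reads, if its mean under the inorganic nitrogen source (INS) was at least 4 and less than 16 times its mean under the organic nitrogen source (ONS), and if the study had not mapped it to its network of metabolic reactions. A normalized read is a read count divided by the size factor of its library, which scales libraries to a common depth. The members made up 1.30% of the 11353 genes with a mean of at least 100. Because the level under ONS relative to INS chose the members, that difference is described and not tested.

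Fronds of the ONS condition were grown with 6.85 mM Gln as the nitrogen source, in a medium in which potassium phosphate and potassium chloride took the place of the nitrogen salts. Fronds of the INS condition were grown with 12.4 mM nitrate and 1.3 mM ammonium. All fronds came from axenic cultures of 1 clone, *Lemna gibba* G3 7742a, kept at 24 °C under continuous light on SH medium at reduced strength with 5 g/L glucose, so that organic carbon was supplied in both conditions. PolyA RNA of fronds was sequenced in 3 biological replicates per condition. In such bulk samples, fewer cells of a type and less RNA per cell cannot be told apart.

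Plants take up nitrate through transporters in the plasma membrane and reduce it to nitrite in the cytosol with nitrate reductase and then to ammonium in plastids with nitrite reductase, and glutamine synthetase joins the ammonium to glutamate to give Gln. Nitrate is also a signal, since many plant genes for its uptake and reduction, and for the supply of carbon skeletons and reductant, are transcribed more strongly when nitrate is sensed. Gln enters after these steps and is an amino donor for other amino acids and nucleotides, and in many plants a high supply of it goes along with lower nitrate uptake.

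The nitrate reductase gene and the nitrite reductase gene that the study named by identifier lay beyond the upper edge of the window and are therefore not members. Nitrate reductase (LEMGIv51_A5_009812_1) had a mean of 610 normalized reads under ONS and 18879 under INS, a level 31.0 times as high under INS. Nitrite reductase (LEMGIv51_A5_006998_1) had 948 under ONS and 23540 under INS, 24.8 times as high under INS. A further 5 genes inside the window were left out because they belong to the reaction network, namely 3 genes of asparagine synthetase, which transfers the amide nitrogen of Gln to aspartate, 1 of transketolase and 1 of the small subunit of RuBisCO. Of the 148 members, pyruvate decarboxylase is the only gene with a name in the sources used here. The others are given by their identifiers, to which the deposited table attaches no function, and no sequence of them is shown.

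Most of the members lay near the lower edge of the window. The INS mean was 4.02 to 15.8 times the ONS mean, with a median of 5.58 and quartiles of 4.55 and 8.01, and 111 members were under 8 fold lower under ONS while 37 were lower by 8 fold or more. On the log2 scale the median change of the members, ONS over INS, was −2.48, beside 0.03 over all genes of that minimum mean. The window has more genes on this side than on the other, as 13 genes outside the reaction network were 4 to 16 fold higher under ONS with the same minimum mean. Outside the network, 466 genes were 2 to 4 fold lower and 16 were at least 16 fold lower under ONS.

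Levels of the members are given as a description, since the rule fixes much of them. A gene at least 4 fold lower under ONS has an ONS mean well below its overall mean, and the 75 members with an ONS mean under 100 met the minimum mean only through INS. Their ONS means ran from 15.25 to 1107 normalized reads with a median of 98.6, against a median of 562 for all genes with that minimum mean. Their INS means ran from 175.5 to 6576 with a median of 639, against 583 for all such genes, and no member was under 100. The median percentile of the members among these genes was 2.37 under ONS and 53.2 under INS. Together the members held 0.156% of all normalized reads under ONS and 0.865% under INS. Levels are not divided by transcript length in the table, so they rank a gene by its reads and not by its number of transcripts.

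**Figure D1:**
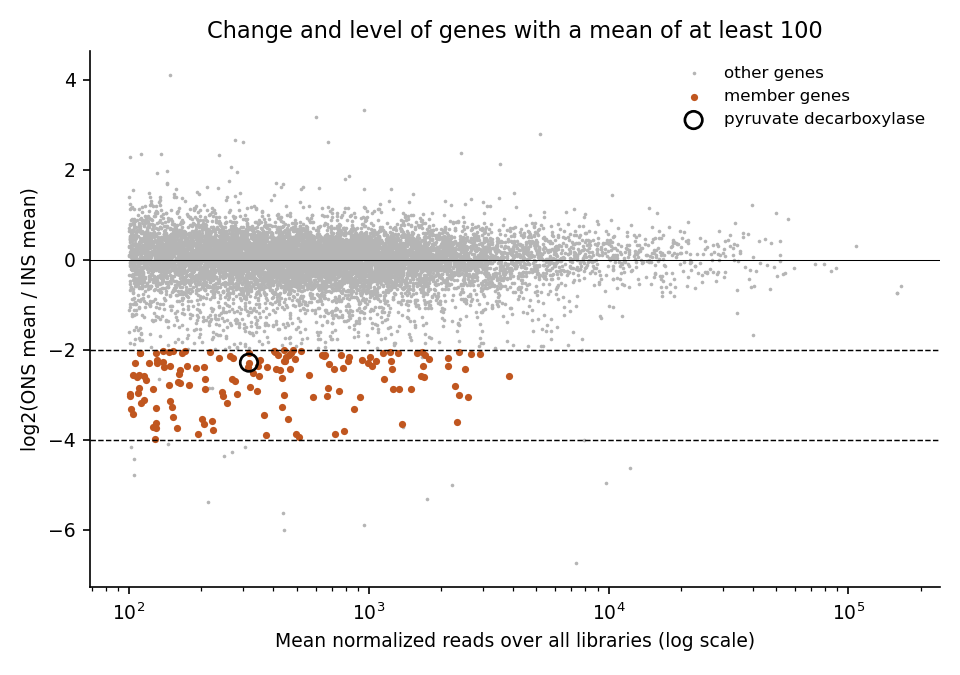
Log2 ratio of the condition means, ONS over INS (vertical axis), against the mean over all libraries in normalized reads (log axis) for genes whose mean reached 100, with the 148 members as larger coloured points, all other genes in grey and pyruvate decarboxylase ringed. Dashed lines mark 4 fold and 16 fold lower under ONS, and the members fill the band between them, with a median log2 ratio of −2.48 beside 0.03 for all genes plotted.

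The members that were 8 fold or more lower differed from the rest in their levels under ONS. Their median ONS mean was 34.1 normalized reads, against 127.5 for the members under 8 fold. Their median INS mean was 418.5, against 680 for the members under 8 fold. These levels enter the ratio that split the members, and no test is given.

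The deposited table holds means of the 3 libraries of a condition and not the libraries themselves. A mean is a sum of 3 whole read numbers, each divided by its size factor, and the reads of each library could be separated from the means for 98 members. The libraries can be told apart only by their depth, here called highest, middle and lowest within a condition. Estimated depths were 35800000, 15900000 and 14400000 reads for ONS and 25900000, 23000000 and 8320000 reads for INS. The other 50 members had INS means of 733 to 6576 normalized reads. Of these, 35 were above the mean up to which reads were searched and 15 had several solutions. Values per library below thus leave out the members of highest level, for which the means carry no error here.

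Each of the 98 members was lower in all 3 ONS libraries than in any INS library. This holds for 14.0% of the 10588 genes fitted, and since the rule used the same contrast nothing is read from it. Median levels of the 98 members were 63.2, 59.5 and 43.6 normalized reads in the ONS libraries of highest, middle and lowest depth, against 452, 298 and 298 in the INS libraries in the same order of depth. The lowest INS library was 1.21 to 11.7 times the highest ONS library, with a median of 3.49. This margin was at least 2 in 89 members and at least 4 in 37. Over the 6737 genes whose mean reached 100 and that had reads per library, the median was 293 to 307 normalized reads in each of the 6 libraries. These genes leave out the highest ones. Over all 11353 genes with that minimum mean, the medians of the condition means were 562 under ONS and 583 under INS.

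Summed over the 98 members, the ONS libraries held 8095, 7277 and 6019 normalized reads (mean 7131 ± 1046, SD, n = 3), and the INS libraries held 51161, 39958 and 36369 (mean 42496 ± 7716, SD, n = 3). In each condition the library of highest depth had the highest sum and that of lowest depth the lowest. As a share of the reads on genes whose mean reached 100 and that had reads per library, these sums were 0.350%, 0.304% and 0.247% in the ONS libraries and 2.04%, 1.63% and 1.49% in the INS libraries. Depending on which INS and ONS library were paired, the sum was 4.49 to 8.50 times as high under INS.

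**Figure D2:**
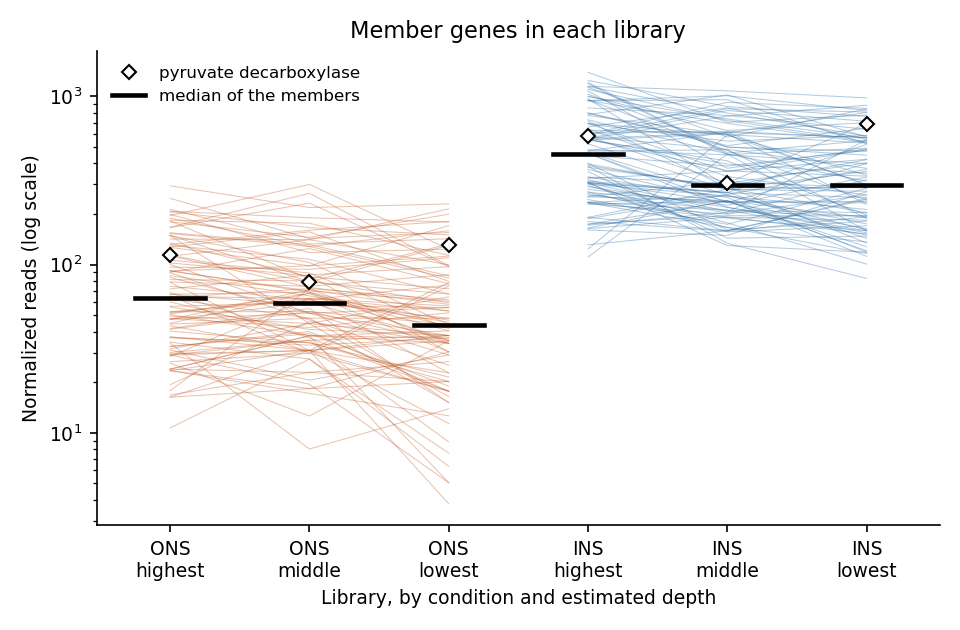
Normalized reads (log axis) of the 98 members with reads per library in the 3 ONS libraries, left, and the 3 INS libraries, right, ordered by depth within each condition, with 1 line per gene, black bars for the medians of the members and diamonds for pyruvate decarboxylase. The median lies between 43.6 and 63.2 in the ONS libraries and between 298 and 452 in the INS libraries.

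The limma fit took all genes with reads per library and a mean of at least 10. In it, the members' log2 changes ran from −3.96 to −1.78, with a median of −2.58 beside 0.05 for all fitted genes. Their standard errors ran from 0.21 to 0.63. A gene was called if its adjusted p was at most 0.05 and its change exceeded 4 fold. By this rule 90 of the 98 members were called lower under ONS, where 2.32% of all fitted genes were. At the adjusted p alone, 96 members were called lower, where 5.13% of all fitted genes were. Nothing is read from either count, for the reason given. The 2 members that missed the adjusted p, LEMGIv51_A5_010223_1 and LEMGIv51_A5_006517_1, are those with the widest range between INS libraries.

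Pyruvate decarboxylase (PDC, LEMGIv51_A5_020915_1) removes carbon dioxide from pyruvate to give acetaldehyde, the first step of ethanol fermentation in plants. It had 114.1, 79.0 and 130.1 normalized reads in the ONS libraries of highest, middle and lowest depth, and 579.1, 306 and 689.9 in the INS libraries. The reads behind these values were 224, 69 and 103 under ONS and 803, 377 and 308 under INS. Every ONS library was below every INS library, as in 14.0% of the genes fitted. The lowest INS library was 2.35 times the highest ONS library. PDC averaged 107.7 ± 26.1 under ONS and 525 ± 198 under INS (SD, n = 3 each), so that its level was 4.88 times as high under INS. In the fit its log2 change was −2.22 (SE 0.34). Within the set the ratio of PDC lay between the lower quartile of 4.55 and the median of 5.58, and 98 members had a larger ratio. Because its ratio chose PDC as a member, its values are a description and not a test. The log2 change was −1.99, just under 4 fold, without the INS library of lowest depth, in which PDC was highest.

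Enzymes around PDC were taken from the reaction network by their enzyme numbers, so by this choice they lie outside the set. Other enzymes that use pyruvate or acetaldehyde were not looked at, and the unnamed members may include some. Pyruvate is formed from phosphoenolpyruvate by pyruvate kinase and from malate by malic enzymes, pyruvate, phosphate dikinase interconverts it with phosphoenolpyruvate, and it is used by the pyruvate dehydrogenase complex, which makes acetyl-CoA, by acetolactate synthase, which opens the path to branched-chain amino acids, and by alanine transaminase. Of 40 genes for these enzymes 33 were in the table, and all 33 differed by less than 2 fold between conditions. So did 89.4% of all genes with a mean of at least 10, but that share takes in lower genes, as all 33 had a mean of at least 100. The log2 ratios of ONS over INS of the 33 ran from −0.21 to 0.98 with a median of 0.23, beside 0.04 for all genes with a mean of at least 10. The 10 genes of pyruvate kinase ranged from −0.21 to 0.68, the 13 of the pyruvate dehydrogenase complex from −0.21 to 0.98, and the 3 of acetolactate synthase from 0.29 to 0.53. None of the 8 genes with reads per library passed an adjusted p of 0.05 in limma. An unadjusted p under 0.05 was found in 2, for which the share over all fitted genes is not given, so nothing is read from it.

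The 2 genes of largest change on this list were both higher in mean under ONS. The E1 subunit alpha-3 of pyruvate dehydrogenase (LEMGIv51_A5_004830_1) had 108.5, 100.7 and 294.2 normalized reads in the ONS libraries, against 37.5, 129.1 and 89.6 in the INS libraries. The conditions overlapped, and the log2 change of 0.95 (SE 0.51) did not pass the test (limma, adjusted p = 0.344). The NADP-dependent malic enzyme LEMGIv51_A5_001160_1 had 343.8, 307.8 and 383.9 normalized reads in the ONS libraries, against 178.9, 201.3 and 201.6 in the INS libraries. Every ONS library was above every INS library here, but the share of all genes for which this holds is not given. The log2 change of 0.83 (SE 0.22) did not pass the adjusted threshold (limma, adjusted p = 0.0587).

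**Figure D3:**
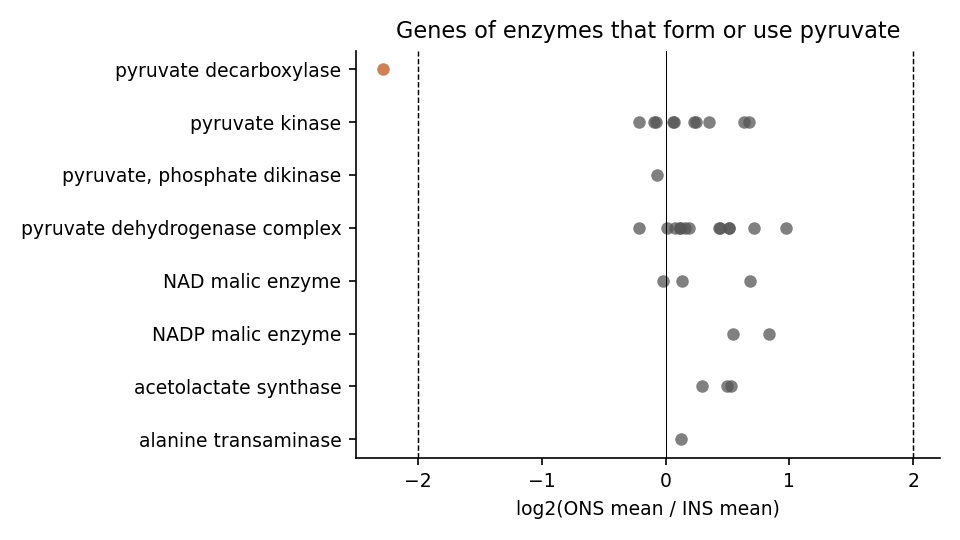
Log2 ratio of the condition means, ONS over INS, for PDC and for the 33 genes of listed network enzymes that form or use pyruvate. Genes are grouped by enzyme, with 1 point per gene and dashed lines at a 4-fold difference in either direction. PDC lies beyond the line on the side of lower levels under ONS, and the 33 other genes lie between −0.21 and 0.98.

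The members of highest level had no reads per library and are given as the authors' means. The highest under INS was LEMGIv51_A5_005360_1, with 1097 normalized reads under ONS and 6576 under INS. LEMGIv51_A5_020621_1 had the highest mean under ONS, with 1107 under ONS and 4728 under INS. LEMGIv51_A5_011904_1 had 555.9 under ONS and 4607 under INS, and LEMGIv51_A5_019485_1 had 1011 under ONS and 4313 under INS. These genes remained above or near the all-gene median of 562 under ONS although their level was 4.27 to 8.29 times as high under INS. They are the 3 members of highest mean in either condition, which share 2 genes.

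The genes nearest the edges of the rule were close in the value that set the edge. At the lower fold edge, LEMGIv51_A5_020664_1 was inside with means of 177 under ONS and 712.3 under INS, a ratio of 4.02, and LEMGIv51_A5_009700_1 was outside with 3091 under ONS and 12363 under INS, a ratio just under 4. At the upper fold edge, LEMGIv51_A5_020813_1 was inside with 15.25 under ONS and 241.6 under INS, a ratio of 15.8, and LEMGIv51_A5_021177_1 was outside with 921.2 under ONS and 14814 under INS, a ratio of 16.1. At the edge of the minimum mean, LEMGIv51_A5_017153_1 was inside with 22.07 under ONS and 178.9 under INS, and LEMGIv51_A5_016486_1 was outside with 26.75 under ONS and 170.4 under INS. In level the pairs at the fold edges were far apart, with the gene outside the higher one in both conditions.

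The rule used condition means and not the spread between libraries of 1 condition, although a single low ONS library or high INS library raises the ratio by which a gene was chosen. The spread was wider for the members than for the median gene in both conditions. The highest library of a member was at the median 1.79 times the lowest under ONS and 1.82 times under INS, beside 1.45 under ONS and 1.49 under INS over the 6737 genes whose mean reached 100 and that had reads per library. A range of more than 2 fold was found in 37.8% of the members under ONS and 31.6% under INS, beside 13.8% under ONS and 18.9% under INS for all genes. Low levels move with the range under ONS, where the median member had 55.6 normalized reads and the median gene 302.5; under INS the median member, at 361, was above the median gene, at 308. The part of the level in the wider range was not tested. The genes most like the members had wide ranges too. Over 2 fold were 18.6% under ONS and 33.8% under INS of the 275 genes that were 2 to 4 fold lower, and 80% under ONS and 50% under INS of the 10 genes that were at least 16 fold lower. The wide range under INS is thus no trait of the members alone.

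The widest and the narrowest members show what these ranges are made of. LEMGIv51_A5_010223_1 had 71.8, 87.0 and 97.2 normalized reads in the ONS libraries of highest, middle and lowest depth, against 124, 591 and 340.5 in the INS libraries. LEMGIv51_A5_006517_1 had 68.3, 36.6 and 17.7 in the ONS libraries, against 385.1, 133.9 and 82.9 in the INS libraries. LEMGIv51_A5_020813_1, the member at the upper fold edge, had 10.7, 27.5 and 7.58 in the ONS libraries, against 111.1, 454.6 and 159 in the INS libraries. In these 3 genes the INS libraries spanned 4.09 to 4.76 fold, and the highest was the library of middle depth in 2 of them and that of highest depth in LEMGIv51_A5_006517_1.

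At the other end, LEMGIv51_A5_000374_1 had 29.5, 30.9 and 11.4 normalized reads in the ONS libraries, against 229.3, 237.8 and 237.4 in the INS libraries. LEMGIv51_A5_016643_1 had 126.8, 98.4 and 112.4 in the ONS libraries, against 561.8, 610.4 and 569 in the INS libraries. LEMGIv51_A5_017030_1 had 96.8, 93.8 and 109.9 in the ONS libraries, against 606.5, 620.2 and 569 in the INS libraries. Their INS libraries lay within 1.04 to 1.09 fold of each other, and in the last 2 genes the ONS libraries were also close.

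Members were highest or lowest in certain libraries of a condition more often than all genes were. All genes here are the 6737 with reads per library and a mean of at least 100. Under ONS, 49 of the 98 members (50.0%) were highest in the library of highest depth, where 26.8% of all genes were. In the ONS library of lowest depth, 60 members (61.2%) were lowest, where 37.6% of all genes were. Under INS, 59 members (60.2%) were highest in the library of highest depth, beside 39.9% of all genes, and 55 (56.1%) were lowest in the library of lowest depth, beside 33.7%. The median deviation of a member from its condition's mean was 0.21 log2 units in the ONS library of highest depth and −0.28 in that of lowest depth, and 0.32 and −0.27 in the INS libraries of highest and lowest depth. For all genes the medians in these 4 libraries were between −0.02 and 0.01. A high INS library or a low ONS library raises the ratio by which a gene was chosen, so part of the pattern can come from the choice. The levels were already scaled by the size factors, and the parts of depth and of the choice in the pattern were not tested.

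The 275 genes that were 2 to 4 fold lower under ONS, with reads per library and outside the reaction network, deviated in the same directions. Their median deviation was −0.16 in the ONS library of lowest depth, 0.24 in the INS library of highest depth and −0.17 in the INS library of lowest depth. The deviations were thus also seen outside the set.

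**Figure D4:**
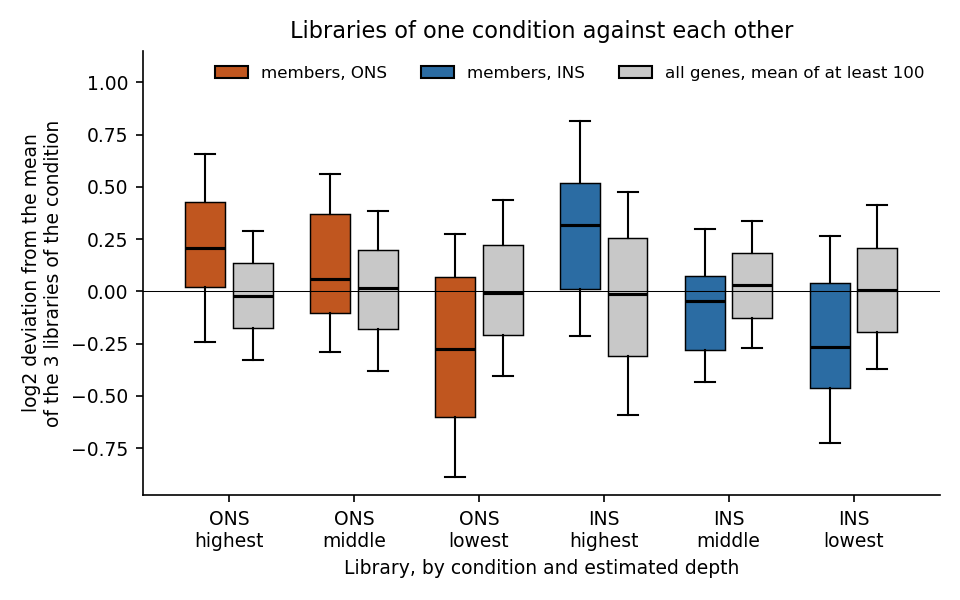
Deviation of a gene from its condition's mean in log2 units in each of the 6 libraries, ONS left and INS right, ordered by depth. Shown are the members and all genes whose mean reached 100, both where reads per library were known. Boxes span the quartiles with the median as a line, and whiskers the 10th to 90th percentile. The members' median is 0.32 in the INS library of highest depth and −0.28 in the ONS library of lowest depth, whereas the medians of all genes stay near 0.

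The choice of members also leaned on these libraries. With the INS library of highest depth left out, 70 of the 98 genes still met the rule and 21 came out under 4 fold. With the ONS library of lowest depth left out, 77 met it and 17 came out under 4 fold. Without any one of the other libraries, 88 to 91 met it. Beside these, 7 to 25 other genes with reads per library entered the window when 1 library was left out.

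Some members had consecutive gene numbers, and such genes may be neighbours or copies whose reads could be split between them. There were 7 such pairs, which held 14 members, and no longer run. In the pair of highest mean, LEMGIv51_A5_020620_1 had means of 157 under ONS and 1571 under INS, and LEMGIv51_A5_020621_1 had 1107 under ONS and 4728 under INS. The first was 10 times as high under INS and the second 4.27 times, so the 2 genes of this pair differed in ratio as well as in level. LEMGIv51_A5_016428_1 and LEMGIv51_A5_016429_1 were alike, with 441.1 and 370.8 under ONS and 1854 and 1774 under INS. LEMGIv51_A5_007208_1 and LEMGIv51_A5_007209_1 had 320.1 and 248.4 under ONS and 2350 and 1315 under INS. Of the 132 genes with a mean of at least 100 that adjoin a member by number without being one, 13 (9.85%) were at least 2 fold lower under ONS, beside 4.40% of all 11205 genes that are not members. Whether gene numbers follow position in the genome was not tested.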

How the data were processed

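PolyA RNA of 3 ONS and 3 INS libraries was analysed, grouped by sample title. Per the labels and methods, the authors mapped reads with Bowtie to predicted transcripts of the draft genome and normalized counts with DESeq; versions are not given in the sources used here. The deposited signal values are the authors' means of read counts divided by size factors, over all libraries and per condition. The authors' fold changes, p-values and calls are in the same table and were not used.

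The members and gene lists were chosen with earlier results of these data known. Whole reads per library were separated from the condition means (means up to 1500) and kept where 1 solution met the ONS, INS and overall means, which gave 11640 genes (71.2%). Of 500 means checked per condition, 100% (ONS) and 99.8% (INS) had a solution, against 6% (ONS) and 0% (INS) of shifted means. The genes checked had means below 361 normalized reads in both conditions, the median INS mean of the 98 members. The check thus does not cover the higher INS means. The depth of a library is an estimate from its size factor. As the table holds means, and the reads behind them are known for some genes alone, no count model was fitted. The test was limma 3.58.1, run in R 4.3.3 with its variance following the mean, on the log2 of normalized reads plus 1. It took the 10588 genes with reads and a mean of 10 or more, and p-values were adjusted over them by the Benjamini-Hochberg procedure. Log2 changes from limma are on that scale, where the added read shrinks those of low genes. They are differences of mean logs and can be larger or smaller than the log2 ratio of the condition means. The fit was tested on simulated data. Reads were separated with numba 0.67.0 and numpy 2.4.6, and tables made with pandas 2.3.3, in Python 3.11.15.

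Genes named are PDC, the 3 members of highest mean under each condition, the genes nearest each edge of the rule, the 3 consecutive pairs of highest mean, the 3 members of widest and of narrowest range between INS libraries, and the 2 genes of largest change on the pyruvate list (mean of at least 50). Nitrate and nitrite reductase were added as background. Alternatives were other minimum means and pseudocounts, centring, no filter, no trend and leaving out each library.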

Additional observations from a re-analysis of the deposited data

How the results depend on the processing

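No paired analysis was possible because the columns of the table carry no replicate numbers, and libraries separated from the means are known only by depth. With the minimum mean at 50 or at 200, the set held 197 or 101 genes in place of 148. Among genes with reads per library, 98 met the rule with all libraries and 77 to 116 when 1 library was left out, of which 70 to 91 were among the 98. Over the 98, leaving out 1 library gave 76 to 94 calls in place of 90, where 1.87% to 2.46% of all fitted genes were called. The median log2 change was then −2.73 to −2.45 in place of −2.57. Other settings with the fold threshold gave 84 to 91 calls, where 1.91% to 2.35% of all fitted genes were called. Without the fold threshold 96 members were called, where 5.13% of all fitted genes were. Nothing is read from these counts, since the same contrast chose the members. The log2 change of PDC was −2.57 to −1.99 when 1 library was left out, and it lost the 4-fold threshold without the INS library of lowest depth, in which its level was highest. Neither the median log2 change of the members nor the change of PDC changed direction. Single members did cross the thresholds, as the counts of members and calls show. For the pyruvate genes, calls with a library left out are not given. Reads of the members were fewest in the ONS libraries, where the rule sets their means low. The lowest member had 3 reads in an ONS library, and 8 members had fewer than 10 in at least 1 ONS library. The lowest value in an INS library was 37 reads, although the library of lowest estimated depth, 8320000 reads, was an INS library.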
